A study of Mus musculus with 55 samples.

Results

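Polycomb group proteins keep genes silent by modifying histones, and 8 genes of this system were followed here in single mouse oocytes. They were taken by name from every oocyte count file, as 8 of the 51734 genes listed. Ezh1, Ezh2, Eed and Suz12 encode the catalytic and core subunits of Polycomb repressive complex PRC2, and Jarid2 encodes an accessory subunit that helps to place it. Rnf2 and Ring1 encode the catalytic subunits of PRC1. Kdm6b encodes an H3K27 demethylase, an enzyme that acts against PRC2. All 8 genes passed the filter on low counts in every fit.

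Each library was made from 1 oocyte. Fully grown oocytes (FGOs) came from ovaries of mice aged 10 to 12 weeks, and their cumulus cells had been washed off. The libraries comprised 18 wild-type FGOs and 10 wild-type MII oocytes, the ovulated stage. The Dnmt3a mutants were 8 FGOs homozygous for the Dnmt3a ADD allele (genotype label Dnmt3aADA/ADADnmt3L+/+). The Dnmt3L mutants were 8 FGOs homozygous for the Dnmt3L ADD allele (label Dnmt3a+/+Dnmt3LD124A/D124A). The double mutants were 8 FGOs homozygous for both (label Dnmt3aADA/ADA + Dnmt3LD124A/D124A). No age is labelled for the MII oocytes. For fertilization in vitro, the study obtained MII oocytes after injecting females with inhibin antiserum and human chorionic gonadotropin. Those females ranged in age beyond 12 weeks. If the sequenced MII oocytes came the same way, hormone treatment and age went along with stage. DNMT3A is a DNA methyltransferase and DNMT3L is its cofactor without activity of its own. Both read the histone H3 tail through an ADD domain that binds H3K4 when it is unmethylated, and the substitutions were made in that domain. The alleles are constitutional, so all tissues of a mutant female carried them. FGOs were pooled before single cells were picked and the number of females is not given, so libraries may share an animal and p-values measure the spread between oocytes.

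PRC2 places methyl groups on H3K27, and EZH2 and EZH1 are its alternative catalytic subunits. EED binds the finished mark and stimulates the enzyme, and SUZ12 holds the complex together. PRC1 ubiquitinates histone H2A through RNF2 (also called RING1B) or RING1. In growing mouse oocytes PRC2 lays down broad H3K27me3 domains, some of which act as a DNA methylation independent imprint after fertilization. The comparison asks whether oocytes with an altered reader of unmethylated H3K4 in the DNA methylation complex also differ in the transcripts of the H3K27 pathway.

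Total counts per library ran from 7832458 to 23739871, with a median of 14410784. At this depth a wild-type FGO gave 1264 counts or more for each of the 8 genes but Ring1. Counting error computed from reads was smaller than the spread between wild-type FGOs for all 8 genes. For Ring1, despite its low counts, it was 22.6% of the mean against an observed SD of 89.8%. In MII oocytes, where Ring1 counts were lower still, its counting error came near the spread. Libraries also part by the share of reads mapped, as the study's sequencing summary gives it. It was under 80% in wild-type FGO replicates 1 to 8, in all 8 double mutant FGOs, in 3 Dnmt3a mutant FGOs and in 3 MII oocytes, and at least 80% in the rest, all 8 Dnmt3L mutant FGOs among them. Double mutants and Dnmt3L mutant FGOs therefore share no class, and between them class and genotype cannot be told apart. Within wild-type FGOs the classes themselves differed, with adjusted p under 0.05 for 26.3% of 17262 genes (15.7% higher and 10.6% lower in the class under 80%, and 5.43% past a fold of 2). Of the 8 genes, Ezh2 (log2 difference -0.20, adjusted p = 0.00368) and Kdm6b (-0.30, adjusted p = 0.00112) were lower in the class under 80%, and the other 6 were not called. The oocyte markers were present in every group, with summed levels from 7946 to 14134 CPM (counts scaled to a common library size) over 12 genes. The 13 granulosa and cumulus markers summed to 130 to 275 CPM in wild-type FGOs, 119 to 164 in Dnmt3L mutants, 123 to 211 in Dnmt3a mutants, 127 to 154 in double mutants and 113 to 134 in MII oocytes. Single markers moved more than these sums. Against wild-type FGOs, 10 of the 13 were lower in MII oocytes (median log2 fold change -3.57) and 8 in double mutants (-1.86), with 0 higher. The 8 endothelium and blood markers summed to 60.0 to 99.3 CPM in wild-type FGOs and 78.9 to 101 in MII oocytes. They summed to 74.2 to 94.8 in Dnmt3L mutants, 80.1 to 131 in Dnmt3a mutants and 47.1 to 73.4 in double mutants. Levels below are CPM after TMM scaling, and CPM per kb of exon wherever genes are compared with each other.

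The start regions of both paralogue pairs are shown because Rnf2 and Ring1, and Ezh2 and Ezh1, do the same catalytic step and yet lay far apart in level. CG is a main target of DNA methylation by DNMT3A with DNMT3L, which also methylate other cytosines in oocytes. Each sequence is the RefSeq window from 250 bases before to 50 bases after the transcription start in GRCm38.p6 (the mm10 assembly), read 5′ to 3′ on the gene's strand. Capitals mark each CG, which reads the same on both strands. In order they are chr1:151500942-151501241 (minus strand), chr17:34024631-34024930 (minus), chr6:47594981-47595280 (minus) and chr11:101226414-101226713 (minus).
Rnf2: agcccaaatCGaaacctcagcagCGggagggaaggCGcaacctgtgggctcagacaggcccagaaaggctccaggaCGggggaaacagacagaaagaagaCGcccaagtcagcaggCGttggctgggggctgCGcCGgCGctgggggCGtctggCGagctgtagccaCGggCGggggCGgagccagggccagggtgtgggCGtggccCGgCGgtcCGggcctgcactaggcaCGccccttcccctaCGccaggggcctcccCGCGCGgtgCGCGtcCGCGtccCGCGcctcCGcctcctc
Ring1: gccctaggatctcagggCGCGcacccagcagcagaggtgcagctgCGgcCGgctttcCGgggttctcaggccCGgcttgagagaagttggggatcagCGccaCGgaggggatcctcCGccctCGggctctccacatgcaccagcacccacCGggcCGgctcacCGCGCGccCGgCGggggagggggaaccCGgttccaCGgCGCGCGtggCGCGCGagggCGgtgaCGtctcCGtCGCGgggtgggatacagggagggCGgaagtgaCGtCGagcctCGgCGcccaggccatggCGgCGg
Ezh2: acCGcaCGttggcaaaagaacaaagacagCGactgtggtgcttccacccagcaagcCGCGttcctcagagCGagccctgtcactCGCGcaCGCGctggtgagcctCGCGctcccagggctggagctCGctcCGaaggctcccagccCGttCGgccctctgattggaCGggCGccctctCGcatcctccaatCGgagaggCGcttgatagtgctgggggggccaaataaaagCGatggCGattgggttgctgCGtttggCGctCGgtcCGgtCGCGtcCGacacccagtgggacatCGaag
Ezh1: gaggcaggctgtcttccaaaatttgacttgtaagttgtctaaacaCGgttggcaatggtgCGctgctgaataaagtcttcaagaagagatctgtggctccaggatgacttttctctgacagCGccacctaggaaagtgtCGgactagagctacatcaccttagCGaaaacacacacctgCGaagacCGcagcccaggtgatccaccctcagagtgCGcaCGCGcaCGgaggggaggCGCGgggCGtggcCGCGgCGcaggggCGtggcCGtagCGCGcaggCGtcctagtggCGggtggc

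The Ring1 window holds 37 CG, and 5.58% of the 32851 windows of this length hold as many. The Ezh2 window holds 31 (10.6% of windows), the Rnf2 window 30 (11.7%) and the Ezh1 window 23 (21.5%), against a median of 7 over all windows. The barely detected Ring1 thus had more CG at its start than the abundant Rnf2. Windows were matched for 7 of the 8 genes. The Suz12 window, with 41 CG, was the richest of them (3.46% of windows hold as many), and Eed had 17 (31.4%). DNA methylation was not analysed here, so these counts say nothing of whether the sites were methylated.

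In wild-type FGOs Suz12, Ezh2, Eed and Kdm6b were abundant transcripts and Ring1 was close to absent. Per kb of exon the order was Suz12 at 108 ± 11.4 CPM per kb (SD, n = 18), Kdm6b at 96.1 ± 13.01, Ezh2 at 65.1 ± 6.47, Rnf2 at 56.5 ± 4.27, Eed at 52.9 ± 6.92, Jarid2 at 35.5 ± 2.77, Ezh1 at 14.1 ± 0.844 and Ring1 at 0.381 ± 0.343. The ranges of neighbours overlapped from Suz12 down to Eed. Below Eed no range overlapped the next, so Jarid2, Ezh1 and Ring1 each formed a step of their own in all 18 libraries. Among 15784 genes tested over all oocytes, Suz12 stood at the 98.03 percentile of level per kb, Kdm6b at 97.6, Ezh2 at 95.6, Rnf2 at 94.4, Eed at 93.7, Jarid2 at 89.8, Ezh1 at 75.2 and Ring1 at 13.9.

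Set among 60 genes of the Polycomb and H3K27 system, these 8 genes were spread over the whole range of levels in wild-type FGOs. The list was led by Ezhip, an inhibitor of PRC2 listed in the files as AU022751, at 456 ± 120 CPM per kb (SD, n = 18). Rbbp7, a histone chaperone of the PRC2 core, followed at 320 ± 45.3, then the PRC1 subunit Bmi1 at 156 ± 22.2 and the PRC2 partner Phf1 at 145 ± 9.79. Suz12 was 5th, Kdm6b 8th, Ezh2 13th, Rnf2 15th, Eed 17th, Jarid2 22nd, Ezh1 38th and Ring1 56th. Kdm6a, the other H3K27 demethylase detected, was 19th at 46.1 ± 4.42 CPM per kb. Of the 60 genes, 17 lay over 50 CPM per kb and 9 under 1. The low end held the PRC1 subunit Pcgf2 at 0.139 ± 0.0624 CPM per kb and the chromobox gene Cbx6 at 0.0773 ± 0.0488, so PRC1 genes were found at both ends.

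**Figure D1:**
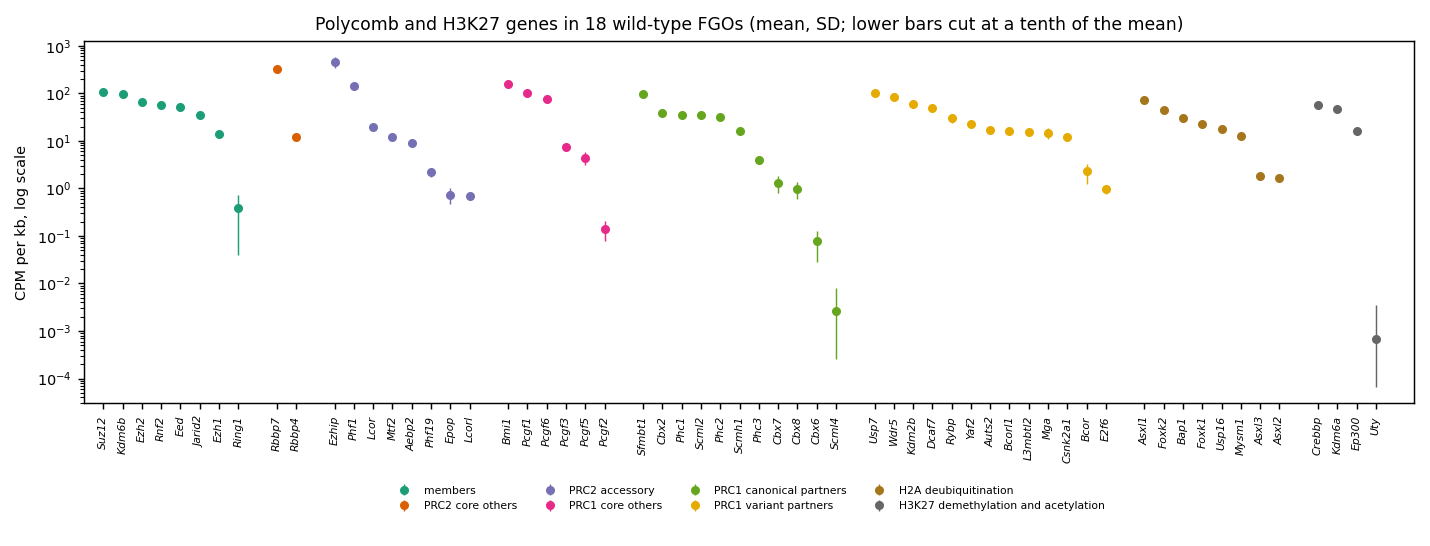
Level of 60 Polycomb and H3K27 genes in 18 wild-type FGOs, as CPM per kb of exon on a log axis, by role in the complexes (points, mean; bars, SD, lower bars shortened where they would reach 0). Ezhip and Rbbp7 stand highest, Suz12 and Kdm6b lead the 8 genes followed here, and Ring1 lies under 1 with Pcgf2 and Cbx6.

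The order of the 8 genes was nearly the same in every group. Suz12 and Kdm6b led throughout, with Suz12 first in all FGO groups (108, 112, 118 and 104 CPM per kb in wild-type FGOs, Dnmt3L mutants, Dnmt3a mutants and double mutants) and Kdm6b first in MII oocytes (123 against 119 for Suz12). In MII oocytes Kdm6b exceeded Suz12 in 8 of 10 libraries, whereas in wild-type FGOs Suz12 exceeded Kdm6b in 15 of 18, and in each group their ranges overlapped. Ezh2 and Rnf2 lay close together in the FGO groups. Ezh2 exceeded Rnf2 in 15 of 18 wild-type FGOs, in 3 of 8 Dnmt3L mutants and in 4 of 8 Dnmt3a mutants, while Rnf2 (60.3 ± 2.99 CPM per kb, n = 8) exceeded Ezh2 (55.5 ± 5.47) in 7 of 8 double mutants. Their ranges overlapped in each of these groups. Jarid2, Ezh1 and Ring1 kept the last 3 places in all 5 groups.

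Of the PRC2 enzymes, Ezh2 was the more abundant in every library. Ezh2 (chr6:47530139-47595341) lay between 344 and 486 CPM in wild-type FGOs with a median of 446, between 369 and 443 (median 410) in Dnmt3L mutants, between 384 and 448 (median 423) in Dnmt3a mutants, between 308 and 418 (median 376) in double mutants, and between 426 and 508 (median 479) in MII oocytes. The double mutants were the lowest group, but their range overlapped that of wild-type FGOs. The 5 lowest wild-type values belonged to the class under 80%, which ran from 344 to 445 CPM against 434 to 486 CPM in the other class.

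Ezh1 (chr11:101191115-101226463) lay between 92.7 and 114 CPM in wild-type FGOs (median 106). It lay between 91.6 and 109 (median 104) in Dnmt3L mutants, between 98.7 and 117 (median 111) in Dnmt3a mutants and between 96.3 and 119 (median 105) in double mutants. MII oocytes stood apart at 115 to 136 CPM (median 127), every one of them above every wild-type FGO. Length-scaled Ezh2 counts exceeded Ezh1 counts by 4.62 ± 0.366 times in wild-type FGOs (SD, n = 18), 4.48 ± 0.529 in Dnmt3L mutants, 4.22 ± 0.400 in Dnmt3a mutants, 3.92 ± 0.316 in double mutants and 4.18 ± 0.406 in MII oocytes. The ratio thus had its lowest mean in double mutants, with ranges that overlapped (3.84 to 5.43 in wild type, 3.42 to 4.37 in double mutants), and it was not tested as such.

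Eed (chr7:89954654-89980983), the subunit that binds H3K27me3, was the PRC2 gene whose groups parted most among FGOs. It lay between 156 and 253 CPM in wild-type FGOs (median 203), between 203 and 254 (median 221) in Dnmt3L mutants, between 211 and 254 (median 226) in Dnmt3a mutants, between 154 and 208 (median 176) in double mutants, and between 193 and 224 (median 212) in MII oocytes. All 8 double mutant oocytes lay below all 8 Dnmt3a mutant oocytes, while the wild-type range overlapped both. Wild-type replicates 4, 5 and 6 were the 3 lowest of their group, at 163, 167 and 156 CPM.

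Suz12 (chr11:79993106-80034123) lay between 442 and 645 CPM in wild-type FGOs (median 532). It lay between 438 and 595 (median 569) in Dnmt3L mutants, between 504 and 631 (median 599) in Dnmt3a mutants, between 414 and 575 (median 513) in double mutants and between 553 and 619 (median 585) in MII oocytes. All groups overlapped, and MII oocytes varied least, with an SD of 3.45% of the mean against 10.6% in wild-type FGOs. Suz12 and Eed moved together from oocyte to oocyte. Across the 52 libraries, with the mean of each group and class removed, their log2 CPM had a Pearson r of 0.81, Ezh2 and Suz12 of 0.78, and Ezh2 and Eed of 0.70. The demethylase gene Kdm6b also followed them, with r of 0.65 to Ezh2, 0.63 to Eed and 0.51 to Suz12. Ezh1 followed less, with r of 0.24, 0.36 and 0.22 to the same genes. Moving together was thus not particular to PRC2 genes. These are descriptions over libraries that share scaling and class. By plain log2 CPM over the 52 libraries, with no means removed, the gene most like Suz12 was Plk4 (r = 0.91), that most like Eed was Kif22 (0.92) and that most like Ezh2 was Ssb (0.90). By this measure Kdm6b was closest to Hgs (0.93), Ring1 to Sgpl1 (0.85), Ezh1 to Atmin (0.81), Jarid2 to Col6a6 (0.74) and Rnf2 to Capza2 (0.69).

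Jarid2 (chr13:44729474-44921643), the accessory subunit, lay between 300.0 and 387 CPM in wild-type FGOs (median 342), between 290 and 384 (median 318) in Dnmt3L mutants, between 270 and 440 (median 324) in Dnmt3a mutants, between 326 and 386 (median 363) in double mutants and between 276 and 378 (median 327) in MII oocytes. The groups overlapped throughout. Dnmt3a mutants were the most variable, with an SD of 16.3% of the mean, and held both the lowest and the highest of the 52 values. With group and class means removed, Jarid2 did not follow the core subunits, with r of -0.04 to Ezh2, -0.29 to Eed and -0.33 to Suz12.

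**Figure D2:**
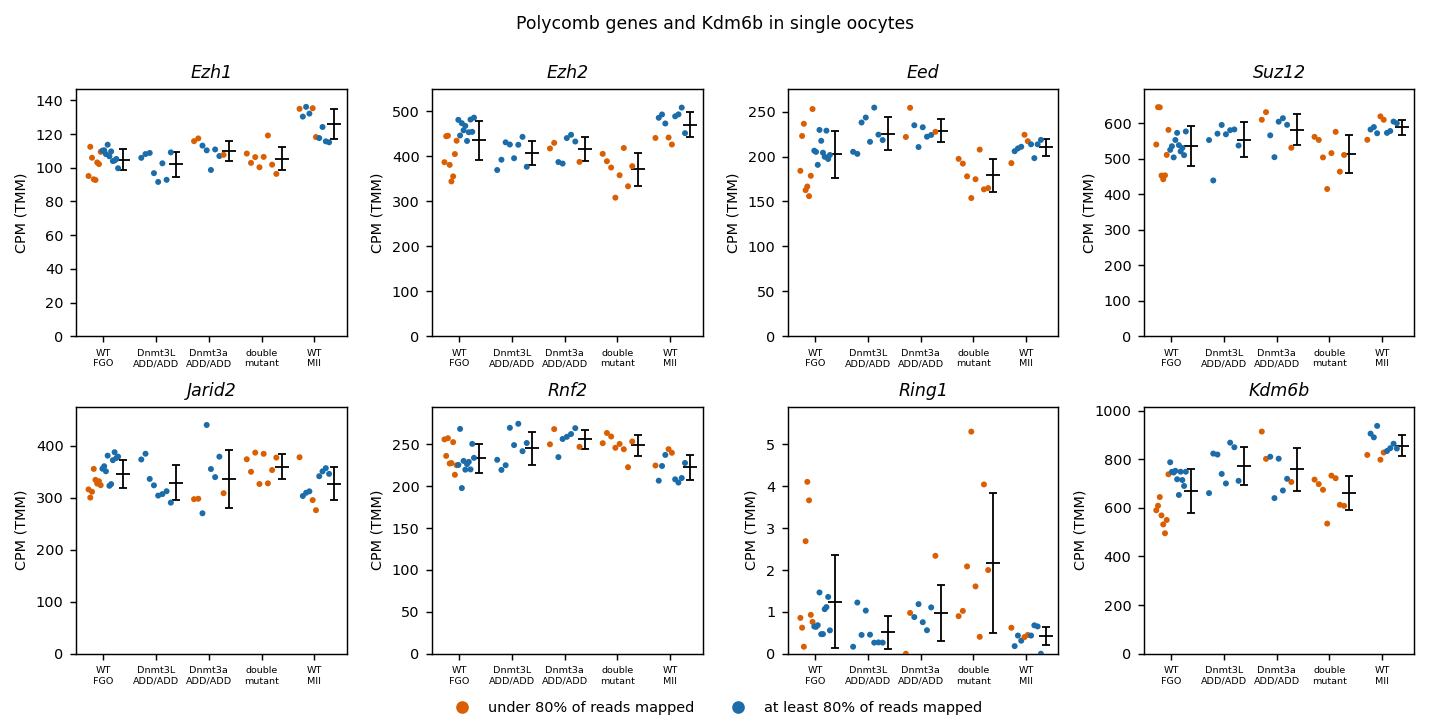
CPM after TMM scaling of the 8 genes in each of 52 single-oocyte libraries, by group (points, 1 library each, coloured by the class of mapped reads; bars, mean and SD). MII oocytes stand highest for Ezh1 and Kdm6b, double mutant oocytes lowest for Ezh2 and Eed, and Ring1 stays under 6 CPM in every library.

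The pair of PRC1 enzymes was expressed almost wholly from Rnf2. Rnf2 (chr1:151458004-151500955) lay between 198 and 268 CPM in wild-type FGOs (median 228), between 219 and 274 (median 245) in Dnmt3L mutants, between 235 and 269 (median 258) in Dnmt3a mutants, between 223 and 263 (median 251) in double mutants and between 204 and 244 (median 224) in MII oocytes. All groups overlapped. Of the exon bases of Rnf2, 3.83% are shared with Trmt1l on the opposite strand, which had a mean of 523 counts, and without strand information reads there cannot be assigned to either gene.

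Ring1 (chr17:34020792-34024680) gave 2 to 72 counts per library in wild-type FGOs (median 12), 2 to 30 in Dnmt3L mutants (median 4), 0 to 42 in Dnmt3a mutants (median 12), 6 to 80 in double mutants (median 26.5) and 0 to 10 in MII oocytes (median 6). At least 10 counts were reached in 13 of 18 wild-type FGOs, 1 of 8 Dnmt3L mutants, 7 of 8 Dnmt3a mutants, 7 of 8 double mutants and 1 of 10 MII oocytes. The level was therefore near the limit of detection in Dnmt3L mutant FGOs and MII oocytes. Length-scaled Rnf2 counts summed over a group exceeded those of Ring1 by 143 times in wild-type FGOs, 341 in Dnmt3L mutants, 193 in Dnmt3a mutants, 90.3 in double mutants and 408 in MII oocytes. The highest Ring1 values were in double mutant replicates 4 and 7 (5.31 and 4.05 CPM) and wild-type replicates 4, 5 and 6 (2.69, 4.11 and 3.66 CPM), all of the class under 80% and the last 3 also those lowest in Eed. Over the 52 libraries, with group and class means removed, Ring1 ran against Suz12 (r = -0.70), a description that rests on low counts for Ring1.

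Kdm6b (chr11:69398508-69413675), the demethylase, had the highest CPM of the 8 genes. It lay between 496 and 788 CPM in wild-type FGOs (median 702), between 661 and 868 (median 779) in Dnmt3L mutants, between 640 and 914 (median 760) in Dnmt3a mutants, between 535 and 733 (median 686) in double mutants and between 798 and 937 (median 845) in MII oocytes. Every MII oocyte was above every wild-type FGO. The wild-type FGOs of the class under 80% lay at 496 to 738 CPM and those of the other class at 653 to 788 CPM, so much of the wild-type spread ran along the class. Fewer reads on a gene can reflect less RNA of that gene or more of others in the same oocyte, which single libraries scaled to their total cannot tell apart.

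In the Dnmt3L mutant comparison no gene of the 8 was called in the fit of all FGOs. Counts were tested with the quasi-likelihood test of edgeR, a call was a Benjamini-Hochberg adjusted p under 0.05 over all genes tested, and the background of calls was 6.13% of 15726 genes (3.07% higher, 3.06% lower, 0.655% past a fold of 2). Unadjusted, 3 genes had a p under 0.05, namely Kdm6b (log2 fold change 0.21 ± 0.07, SE, adjusted p = 0.0865), Eed (0.15 ± 0.07, adjusted p = 0.147) and Ring1 (-1.25 ± 0.50, adjusted p = 0.126), and DESeq2 also called none. Over all genes tested, 3537 of 15726 had an unadjusted p under 0.05 here, so 3 of 8 is not far from that share. The 95% interval of the difference was 0.06 to 0.35 on the log2 scale for Kdm6b and -0.21 to 0.02 for Ezh2. For Ezh1, Suz12, Jarid2 and Rnf2 each interval lay within -0.19 and 0.17. Within the libraries of at least 80% mapped reads, Ezh2 was lower in Dnmt3L mutant FGOs than in the 10 wild-type FGOs of that class (log2 fold change -0.19, adjusted p = 0.00493). It was then the only call of the 8, and the share called over all genes in that fit is not given here. In the fit of all FGOs 7 of 12 oocyte markers were lower (median log2 fold change -0.23). Of 13 granulosa and cumulus markers 3 were lower, all 3 past a fold of 2. Of 8 theca and stroma markers tested 1 was lower (median -0.81). The part of these markers was not tested.

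In Dnmt3a mutant FGOs, Rnf2 was higher than in wild type, from 233 ± 17.6 to 256 ± 11.6 CPM (SD, n = 18 and 8; log2 fold change 0.14 ± 0.04, SE, adjusted p = 0.0302 by edgeR). This was 1 call of 8, against a background of 15.7% of 15726 genes (8.06% higher, 7.61% lower, 2.05% past a fold of 2). The adjusted p rose to between 0.0557 and 0.0848 when Dnmt3a mutant replicate 1, 2, 4, 5, 6 or 7 was left out. Within the class of at least 80% the difference was 0.15 (adjusted p = 0.0986) and within the other class 0.11 (adjusted p = 0.298). In this comparison 8 of 12 oocyte markers were lower (median log2 fold change -0.32) and 4 of 13 granulosa and cumulus markers were lower, all 4 past a fold of 2. Of 8 theca and stroma markers tested 1 was higher and 2 were lower, all 3 past a fold of 2 (median 0.23). The part of these markers was not tested. Values just outside the threshold were those of Eed (0.18 ± 0.06, adjusted p = 0.0558) and Kdm6b (0.18 ± 0.07, adjusted p = 0.0843). The Kdm6b difference was 0.45 in the class under 80% (3 mutant and 8 wild-type libraries, adjusted p = 0.0219) and -0.0042 in the other class (adjusted p = 0.980), and the difference between the classes was not tested. Ezh2 ran the other way, at -0.15 in the class of at least 80% (adjusted p = 0.0492) and 0.04 under 80% (adjusted p = 0.797).

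In double mutant FGOs, Ezh2 was lower than in wild type. It fell from 435 ± 43.2 to 370 ± 36.6 CPM (SD, n = 18 and 8; log2 fold change -0.24 ± 0.06, SE, adjusted p = 0.00656 by edgeR), and the call held with each of the 26 libraries left out in turn. It was the only call of 8, against a background of 12.2% of 15726 genes (5.51% higher, 6.74% lower, 1.65% past a fold of 2). All double mutants are of the class under 80%, in which wild-type FGOs are also low in Ezh2. Against the 8 wild-type FGOs of that class alone the difference was -0.13 (adjusted p = 0.547), and with the class as a covariate it was -0.15 (adjusted p = 0.184). Eed was next, at -0.18 ± 0.07 (adjusted p = 0.0582), and was called when any of 14 libraries was left out, with adjusted p from 0.0119 to 0.139 over all 26. Within the class it was -0.14 (adjusted p = 0.691). Ring1 was 0.79 ± 0.42 (adjusted p = 0.211) and the other 5 genes lay between -0.07 and 0.09. Markers of other cells moved with these values, and their part was not tested. Of 13 granulosa and cumulus markers 8 were lower in double mutants, all past a fold of 2 (median log2 fold change -1.86 over the 13, summed level 127 to 154 against 130 to 275 CPM). Of 8 theca and stroma markers tested 7 were lower (median -3.52, summed level 2.06 to 4.49 against 5.40 to 41.5 CPM, with Lum and Acta2 at 0 in double mutants), and 3 of 12 oocyte markers were higher.

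**Figure D3:**
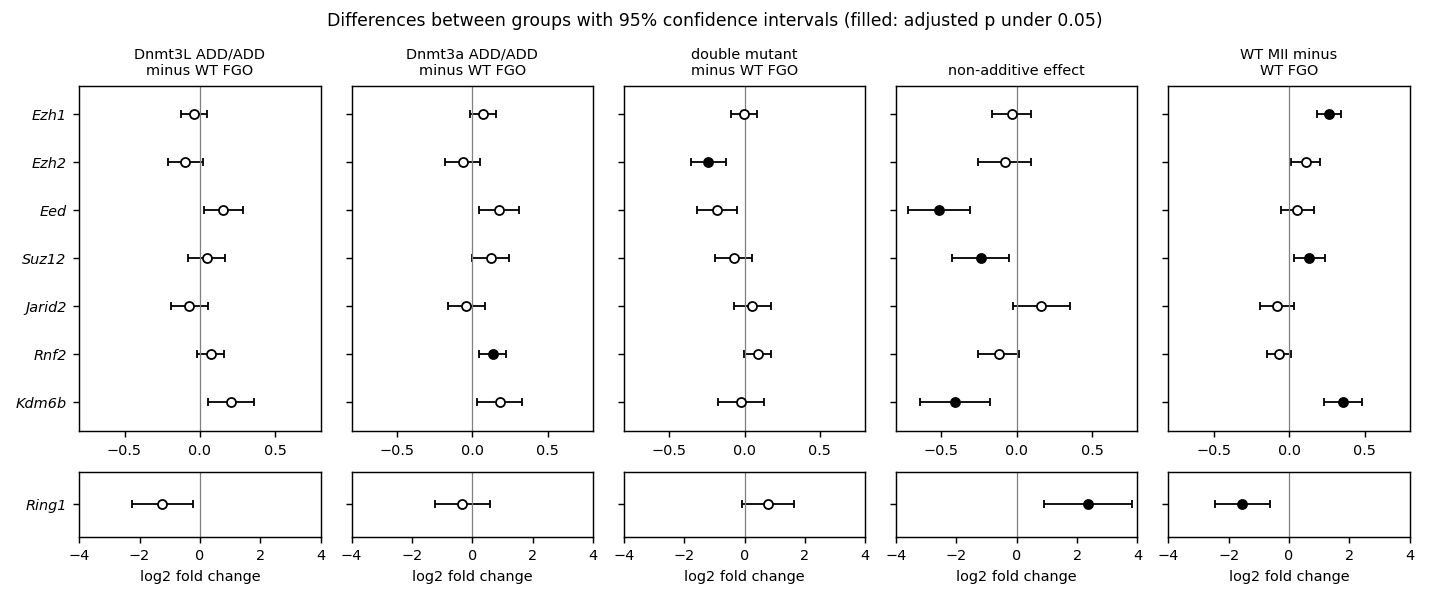
Log2 fold changes of the 8 genes with 95% confidence intervals in 4 comparisons and for the non-additive effect of both mutations (filled, adjusted p under 0.05), with Ring1 on a wider axis. Rnf2 is called in Dnmt3a mutants and Ezh2 in double mutant FGOs, Eed has the lowest non-additive value outside Ring1, and Ezh1 and Kdm6b are highest at the MII stage.

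Compared with each single mutant, the double mutant was lowest in Eed. Against Dnmt3a mutants, Eed fell by 0.36 on the log2 scale (SE 0.08, adjusted p = 0.000682 by edgeR), from 228 ± 12.8 to 179 ± 18.6 CPM (SD, n = 8 and 8). Suz12 (-0.19 ± 0.07, adjusted p = 0.0365) and Ezh2 (-0.18 ± 0.07, adjusted p = 0.0412) were also lower, which made 3 calls of 8 against a background of 30.9% of 15726 genes (14.9% lower, 5.86% past a fold of 2). The share of 3 in 8 is near that background, and the PRC2 core genes Ezh1 (-0.07, adjusted p = 0.258), Rbbp4 (0.10, adjusted p = 0.243) and Rbbp7 (-0.11, adjusted p = 0.369) were not called. In the same comparison 11 of 12 oocyte markers were higher (median 0.51) and 6 of 13 granulosa and cumulus markers lower (median -1.50), and their part was not tested. Within the class under 80%, with only 3 Dnmt3a mutant libraries, Eed (-0.41, adjusted p = 0.0471) was still lower, Suz12 (-0.23, adjusted p = 0.201) and Ezh2 (-0.17, adjusted p = 0.212) were not called, and Jarid2 was higher (0.24, adjusted p = 0.0290). That within-class fit was added after the data were seen.

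Against Dnmt3L mutants, the double mutant was lower in Eed, by 0.34 on the log2 scale (SE 0.08, adjusted p = 0.00224 by edgeR), and higher in Ring1 (2.04 ± 0.56, adjusted p = 0.00817), with a background of 24.2% of 15726 genes (12.8% higher, 11.4% lower, 4.03% past a fold of 2). Ring1 rose from 0.516 ± 0.393 to 2.17 ± 1.68 CPM (SD, n = 8 and 8) and was the only one of the 8 genes past a fold of 2 here. These groups share no class. With the class as a covariate, Eed was -0.29 (adjusted p = 0.124), Ring1 was 1.19 (adjusted p = 0.388), and Jarid2 was called instead (0.30, adjusted p = 0.0466). The class effect in that fit comes from wild-type and Dnmt3a mutant FGOs and is taken as equal in the other genotypes. Between the single mutants no gene of the 8 was called (background 0.0127% of 15726 genes, all higher in Dnmt3a mutants, 0 lower and 0 past a fold of 2). Unadjusted, 1 gene had a p under 0.05, Ezh1, higher in Dnmt3a mutants by 0.11 ± 0.05 (adjusted p = 0.672), and DESeq2 called none. Over all genes tested, 1012 of 15726 had an unadjusted p under 0.05 here, so 1 of 8 is not far from that share.

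The effect of both mutations together was not the sum of the single effects for 4 of the 8 genes. The non-additive effect is the double mutant difference minus both single mutant differences. It was -0.52 ± 0.10 on the log2 scale for Eed (SE, adjusted p = 0.000156 by edgeR), -0.41 ± 0.12 for Kdm6b (adjusted p = 0.00538), -0.24 ± 0.09 for Suz12 (adjusted p = 0.0427) and 2.37 ± 0.72 for Ring1 (adjusted p = 0.00982). The background was 35.6% of 15726 genes (19.3% higher, 16.3% lower, 10.3% past a fold of 2), so 4 of 8 is a share not far above it. In both single mutants Eed, Kdm6b and Suz12 had positive estimates (0.15 and 0.18 for Eed), and in the double mutant negative ones (-0.18 for Eed). The estimates share the same wild-type oocytes. For this contrast 11 of 12 oocyte markers were higher (median 0.78, 2 of them past a fold of 2). Of 13 granulosa and cumulus markers 1 was higher and 3 were lower (median -0.58). Of 8 theca and stroma markers tested 5 were lower (median -2.51). The part of these markers was not tested. With the class as a covariate Eed kept its call (-0.46, adjusted p = 0.00728), Jarid2 gained one (0.36, adjusted p = 0.0129), and Kdm6b (-0.24, adjusted p = 0.196), Suz12 (-0.24, adjusted p = 0.140) and Ring1 (1.38, adjusted p = 0.267) were not called. That covariate is estimated from wild-type and Dnmt3a mutant FGOs alone, the only genotypes with both classes, and is taken as equal in all.

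The proportions of the PRC2 subunits were described by ratios, which were not tested. Length-scaled Ezh2 counts stood to Eed counts as 1.24 ± 0.110 in wild-type FGOs (SD, n = 18), 1.04 ± 0.0583 in Dnmt3L mutants and 1.04 ± 0.0750 in Dnmt3a mutants (n = 8 each), 1.19 ± 0.0540 in double mutants (n = 8) and 1.28 ± 0.103 in MII oocytes (n = 10). Both single mutants had the lower means, with ranges of 0.958 to 1.13 and 0.945 to 1.16 that overlapped the wild-type range of 0.984 to 1.42. The ratio of Suz12 to Eed was 2.06 ± 0.149 in wild-type FGOs, 1.90 ± 0.139 in Dnmt3L mutants, 1.97 ± 0.129 in Dnmt3a mutants, 2.21 ± 0.0927 in double mutants and 2.16 ± 0.0559 in MII oocytes. The double mutant range began at 2.08, where the Dnmt3L mutant range ended, and no library of these groups overlapped. The classes of wild-type FGOs also parted in mean. The ratio of Ezh2 to Eed was 1.19 ± 0.123 under 80% (n = 8) and 1.28 ± 0.0864 in the other class (n = 10), that of Suz12 to Eed 2.13 ± 0.162 and 1.998 ± 0.112, and that of Ezh2 to Ezh1 4.37 ± 0.269 and 4.82 ± 0.310, with overlapping ranges. These ratios do not depend on the scaling of the libraries.

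**Figure D4:**
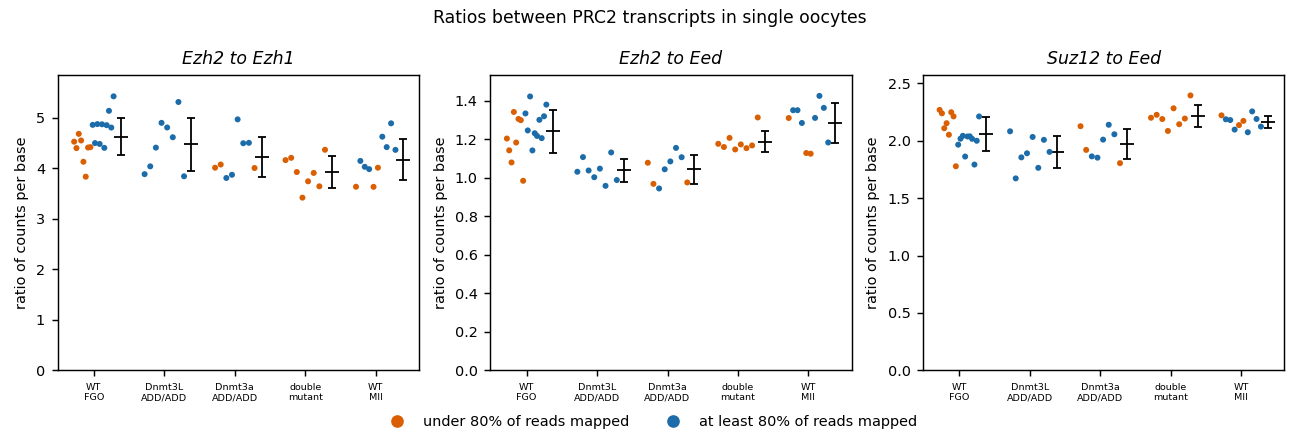
Ratios of length-scaled counts between PRC2 transcripts in each of 52 oocyte libraries, by group (points, 1 library each, coloured by the class of mapped reads; bars, mean and SD). Single mutant FGOs have lower ratios of Ezh2 to Eed than most wild-type FGOs, and double mutant FGOs have the lowest mean ratio of Ezh2 to Ezh1.

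From the FGO to the MII stage in wild type, Ezh1, Kdm6b and Suz12 were higher and Ring1 was lower. Ezh1 rose from 105 ± 6.28 to 126 ± 8.73 CPM (SD, n = 18 and 10; log2 fold change 0.26 ± 0.04, SE, adjusted p = 2.7e-07 by edgeR). Kdm6b rose from 669 ± 90.5 to 856 ± 43.0 CPM (0.36 ± 0.06, adjusted p = 1.02e-05). Both passed within the class of at least 80% as well (Ezh1 0.22, adjusted p = 0.000473) and within the class under 80% (Ezh1 0.36, adjusted p = 0.00200). Suz12 was 535 ± 56.5 and 588 ± 20.3 CPM (0.13 ± 0.05, adjusted p = 0.0308), a call lost without wild-type replicate 6 or MII replicate 2 or 5, with adjusted p up to 0.0556, and it was called within the class of at least 80% (0.13, adjusted p = 0.0343) but not within the class under 80% (0.17, adjusted p = 0.311). Ring1 fell from 1.24 ± 1.11 to 0.416 ± 0.213 CPM (log2 fold change -1.55 ± 0.46, adjusted p = 0.00591) and was the only one of the 8 past a fold of 2. Within the classes Ring1 was -1.09 (adjusted p = 0.0618) and -1.79 (adjusted p = 0.179). At this step 10 of 13 granulosa and cumulus markers (median log2 fold change -3.57), 7 of 8 theca and stroma markers (-3.45) and 7 of 12 oocyte markers (-0.25) were also lower, and their part was not tested.

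These were 4 calls of 8, against a background of 39.1% of 15784 genes at this step (16.5% higher, 22.6% lower, 9.20% past a fold of 2). Ezh2 was 0.11 ± 0.05 (adjusted p = 0.0627), Eed 0.06 ± 0.06 (adjusted p = 0.451), Rnf2 -0.07 ± 0.04 (adjusted p = 0.184) and Jarid2 -0.08 ± 0.06 (adjusted p = 0.273). Oocytes largely stop transcribing by the end of growth, as textbook knowledge has it, so levels here are mostly those of stored RNA. They are given as a share of all RNA read in a library. The study scored FGOs of a less mature (NSN) and a more mature (SN) nuclear type. The type of each sequenced FGO is not given, so whether each had fully stopped is not known here. SMART-Seq HT primes on poly(A) tails, and differences in tail length between stages were not measured.

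The other 52 genes of the Polycomb and H3K27 system are described next, by comparison. In Dnmt3L mutant FGOs 0 of 50 tested were called, where the background was 6.13% of all genes. In Dnmt3a mutants 7 were higher and 2 lower (background 15.7%). Mtf2, which brings PRC2 to CpG islands, rose from 69.6 ± 5.05 to 84.9 ± 4.42 CPM (log2 fold change 0.29 ± 0.05, adjusted p = 2.7e-05 by edgeR). The H2A deubiquitinase Mysm1 (0.22 ± 0.05, adjusted p = 0.00129), Usp7, a partner of variant PRC1 (0.21 ± 0.06, adjusted p = 0.00822), and the PRC1 subunits Scml2 (0.21 ± 0.06, adjusted p = 0.00938) and Phc2 (0.21 ± 0.06, adjusted p = 0.0122) were higher as well. Lower were Ep300, an H3K27 acetyltransferase (-0.24 ± 0.06, adjusted p = 0.00649), and Lcorl (-0.30 ± 0.11, adjusted p = 0.0442).

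In double mutant FGOs 2 of the 50 were higher and 3 lower (background 12.2%). Aebp2, a PRC2 accessory subunit (0.23 ± 0.06, adjusted p = 0.0166 by edgeR), and Mysm1 (0.17 ± 0.05, adjusted p = 0.0224) were higher. The variant PRC1 partners Auts2 (-0.29 ± 0.06, adjusted p = 0.00352), Bcorl1 (-0.28 ± 0.08, adjusted p = 0.0134) and Rybp (-0.32 ± 0.09, adjusted p = 0.0242) were lower. These 3 were also lower in wild-type FGOs of the class under 80% than in the other class (-0.31, -0.20 and -0.52). Within that class 1 gene of 49 was called higher and 0 lower in double mutants. The share called over all genes in that fit is not given here.

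At the MII stage 20 of 49 tested were higher and 6 lower (background 39.1%). Within the class of at least 80% 15 were higher and 5 lower, and the share called over all genes in that fit is not given here. Higher were Foxk1, a partner of the H2A deubiquitinase complex (0.38 ± 0.05, adjusted p = 7.81e-08), and Crebbp, an acetyltransferase (0.28 ± 0.04, adjusted p = 6.4e-08). The PRC1 genes Scmh1 (0.32 ± 0.06, adjusted p = 8.72e-06), Phc2 (0.29 ± 0.05, adjusted p = 1.21e-05), Auts2 (0.31 ± 0.05, adjusted p = 7e-06), Rybp (0.36 ± 0.08, adjusted p = 0.000262), Pcgf6 (0.24 ± 0.05, adjusted p = 6.2e-05) and Bmi1 (0.22 ± 0.06, adjusted p = 0.00355) were higher too. Lower were Mga, a DNA-binding subunit of variant PRC1 (-0.74 ± 0.15, adjusted p = 9.36e-05), and Mysm1 (-0.23 ± 0.05, adjusted p = 9.86e-05). Within the PRC2 core, Rbbp7 was higher (0.16 ± 0.06, adjusted p = 0.0389) and its close relative Rbbp4 lower (-0.16 ± 0.05, adjusted p = 0.00404). Kdm6a, the paralogue of Kdm6b, was 376 ± 36.0 CPM in wild-type FGOs and 395 ± 26.8 in MII oocytes (0.07 ± 0.05, adjusted p = 0.248), and it was not called in any mutant.

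**Figure D5:**
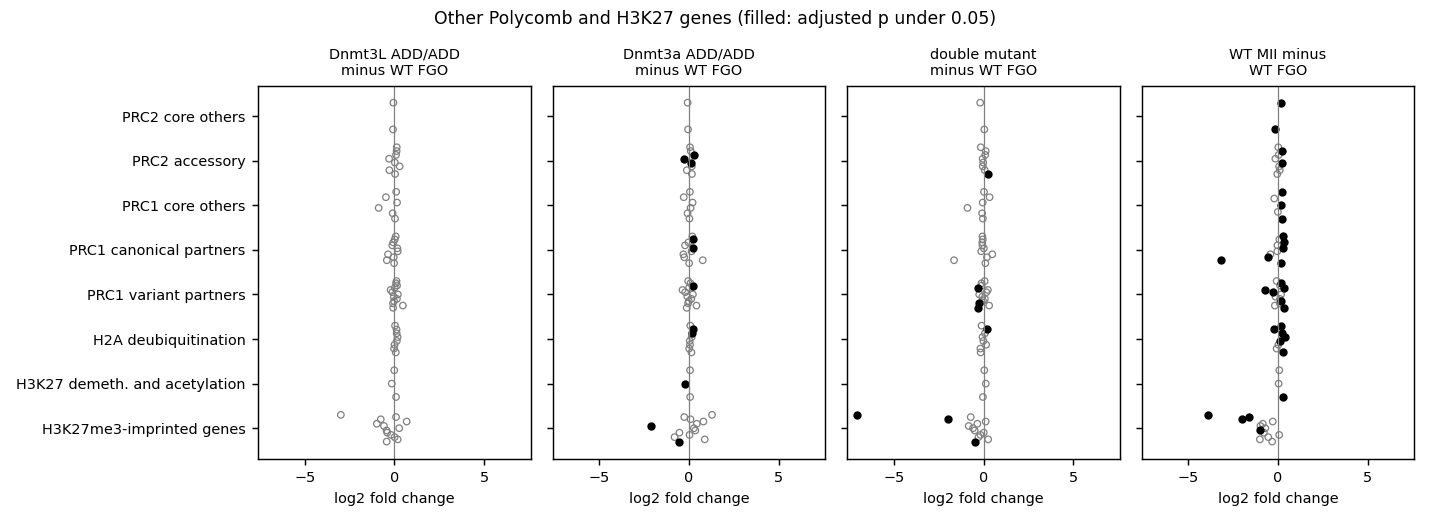
Log2 fold changes of the other Polycomb and H3K27 genes and of genes imprinted by maternal H3K27me3, by list, in 4 comparisons (filled, adjusted p under 0.05). None is called in Dnmt3L mutant FGOs, 7 higher and 2 lower of the 50 Polycomb and H3K27 genes in Dnmt3a mutants, 2 and 3 in double mutant FGOs, and 20 and 6 of 49 at the MII stage.

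Genes whose imprint is set by H3K27me3 in the oocyte were also listed, since they are known targets of the system. Of 15 such genes 13 were tested. None was called higher in any of these 4 comparisons, and 0, 2, 3 and 4 were lower in Dnmt3L mutants, Dnmt3a mutants, double mutant and MII oocytes. Over all genes tested, 3.06%, 7.61%, 6.74% and 22.6% were called lower in these comparisons. The median log2 fold change was -0.41, 0.08, -0.49 and -0.85, against -0.03, -0.03, -0.01 and -0.05 over all genes. Bbx, a transcription factor gene, had the highest mean level of the called genes in wild-type FGOs, at 21.0 ± 5.80 CPM against 14.2 ± 3.59 in Dnmt3a mutants (-0.57 ± 0.15, adjusted p = 0.00877 by edgeR) and 14.9 ± 3.10 in double mutants (-0.50 ± 0.15, adjusted p = 0.0265). Xist, called lower in double mutants and MII oocytes, ranged from 0 to 87.0 CPM within wild-type FGOs and was higher in their class under 80% than in the other class (adjusted p = 7.31e-07). The other called genes lay near or under 1 CPM, where a fold rests on a few counts.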

How the data were processed

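Single-oocyte libraries (SMART-Seq HT, not stranded) had been aligned to mm10 with STAR, and the authors deposited raw counts of reads per gene made with featureCounts or HTSeq, with no normalization. The annotation release is not given in the sources used here. Of counts from 1 to 20, between 60.9% and 70.5% per library were even, so counting error computed from reads is a lower limit. Allelic embryo tables were not used.

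Counts of 42 FGO libraries were fitted together with the quasi-likelihood test of edgeR 4.0.16 in R 4.3.3 (TMM scaling, filterByExpr with a minimum count of 10, Benjamini-Hochberg adjustment over all genes). MII oocytes were compared in a fit of all 52 oocytes. The comparison of classes used genotype and class together. A call was an adjusted p under 0.05, and a fold of 2 was counted beside it. The non-additive effect was a contrast in the FGO fit. Classes of mapped reads, split at 80%, were taken from the study's sequencing summary. Correlations used log2 CPM with a prior count of 2. Alternatives were DESeq2 1.42.0, other scaling and filters, each library left out, class as covariate or within class, and a replicate block. Scripts were tested on simulated data. The 8 genes were named in every comparison. From the lists the text names some, not all, of the genes with an adjusted p under 0.05, up to 3 per list in each direction. It also names a few genes that were not called, and the most alike gene by correlation for each of the 8. A listed gene is not reported here and is left out of list counts. The 8 genes and the lists were chosen with earlier results of these data known. Figures used matplotlib 3.10.9.

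Replicate numbers did not pair the libraries. Over 82 pairs with the same number in different groups, deviations from the group means had a mean r of -0.0067.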

Additional observations from a re-analysis of the deposited data

Results flagged for a closer look

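Among the 32 combinations of gene and group with 4 to 10 libraries, 1 library stood apart from the rest of its group. Suz12 was 438 CPM in Dnmt3L mutant replicate 2, the lowest of 8. Chance flags about 1 in 20 such groups.

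The effects of the Dnmt3a and Dnmt3L mutations did not add up, by the tested contrast, for 4 genes. The non-additive effect on the log2 scale was -0.52 for Eed, -0.24 for Suz12, 2.37 for Ring1 and -0.41 for Kdm6b. With the class of mapped reads as a covariate Eed kept its call (adjusted p = 0.00728 by edgeR), and Suz12 (adjusted p = 0.140), Ring1 (adjusted p = 0.267) and Kdm6b (adjusted p = 0.196) did not. All double mutants belong to the class under 80% mapped reads and all Dnmt3L mutants to the other. The class effect was thus estimated from wild-type and Dnmt3a mutant FGOs alone and taken as equal in all genotypes. The kept call of Eed therefore cannot tell class and genotype apart.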

How the results depend on the processing

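Over all alternatives other than leaving out a library, 428 log2 fold changes of the 8 genes kept their direction and side of the threshold, 23 gained a call, 31 lost one and 30 changed sign. With libraries left out, 763 kept both, 57 gained a call, 9 lost one and 19 changed sign. Every sign change was of a value that was not called. Calls among the 8 genes ranged from 0 to 2 in Dnmt3L mutants, 0 to 3 in Dnmt3a mutants, 1 to 2 in double mutants and 3 to 5 at the MII stage with 1 library left out. Their numbers changed as follows. In Dnmt3L mutants there was 1 within the class of at least 80%. In Dnmt3a mutants there were 0 with no filter, 2 with DESeq2 and 0 with only the 2 groups fitted. In double mutants there were 2 with total counts, 2 with DESeq2, 0 with the class as covariate and 0 within the class under 80%. Against Dnmt3a mutants, double mutants had 1 with total counts and 1 with no filter. Against Dnmt3L mutants there was 1 with the class as covariate, and for the non-additive effect 2. At the MII stage there were 2 within the class under 80%. The share called over all genes in each alternative is not given here. Past a fold of 2 there were 0 calls in Dnmt3a mutants, double mutants, double against Dnmt3a mutants and the wild-type classes, and 1 (Ring1) against Dnmt3L mutants, for the non-additive effect and at the MII stage.

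Signs changed as follows on the log2 scale. In Dnmt3a mutants, Ezh2 was 0.045 within the class under 80%, and Ring1 was 0.075 and Kdm6b -0.0042 within the other class. In double mutants, Ezh1 was 0.0203 with total counts, 0.017 with the covariate and 0.029 within class, and Kdm6b 0.0024, 0.0799 and 0.14. Leaving out libraries gave -0.029 to 0.016 for Ezh1 and -0.043 to 0.018 for Kdm6b. Against Dnmt3a mutants Rnf2 was 0.0087 with total counts, and against Dnmt3L mutants Ezh2 was 0.016 and Rnf2 -0.011 with the covariate. Between single mutants Eed was -0.0032 within class and Kdm6b 0.048 with the covariate. For the non-additive effect, Ezh1 was 0.047 and Ezh2 0.00094 with total counts, and 0.00047 and 0.086 with the covariate. At the MII stage Eed was -0.0069 with total counts and Rnf2 0.0087 within the class under 80%. Between wild-type classes Suz12 was -0.014 with RLE scaling, -0.022 with no filter and -0.014 with DESeq2. The within-class fits of double against Dnmt3a mutants and of Dnmt3a against Dnmt3L mutants were chosen after seeing the data. The causes were not tested.

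With the replicate number as a block, calls were 2 in Dnmt3L mutants, 2 in Dnmt3a mutants and 0 in double mutants. Under this replicate block Ezh1 was 0.0040, Ezh2 0.031 and Jarid2 0.0204 in Dnmt3L mutants, Ezh2 0.062 and Jarid2 0.046 in Dnmt3a mutants, and Ezh1 0.045 and Kdm6b 0.16 in double mutants. Only 3 libraries correlated best with their own number, so the numbers do not pair the libraries. Depth limits Ring1 alone, with a mean of 5.4 to 30.9 counts per library in the 5 groups.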
